A study of Microtus ochrogaster with 40 samples.

Results

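The nuclei described here are Foxp2 neurons of the prairie vole nucleus accumbens that carry transcripts of Col14a1 or Gabrq. A nucleus was taken as a member when its barcode had at least 500 UMIs, at most 5% of them from the 13 mitochondrial genes, at least 1 UMI of Foxp2, at least 2 UMIs of Col14a1 and Gabrq together, and none of Otof or Slc17a7. A UMI (unique molecular identifier) marks 1 captured RNA molecule. Of 185995 kept nuclei in 40 animals, 974 (0.524%) met the rule. The number per animal ranged from 2 to 91 with a median of 23. Foxp2 was detected in 15655 kept nuclei, and 14410 of these had no Slc17a7 UMI. Of those, 11418 also had no Otof UMI. The Otof condition alone left out 180 nuclei that met every other condition, the Slc17a7 condition alone left out 66, and the Foxp2 condition alone left out 1210.

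Foxp2 encodes a forkhead transcription factor of striatal and amygdala neurons. Col14a1 encodes collagen XIV, a protein that associates with collagen fibrils, and Gabrq encodes the theta subunit of the GABA-A receptor, a chloride channel opened by the inhibitory transmitter GABA. Otof encodes otoferlin, a calcium sensor of vesicle release, and Slc17a7 encodes a vesicular glutamate transporter of excitatory neurons. Most neurons of the nucleus accumbens are GABA-releasing medium spiny neurons, which are usually divided into a class with the dopamine receptor D1 and a class with the receptor D2. The prairie vole is a rodent whose adults form lasting bonds with a mate, and the nucleus accumbens is a region in which that behaviour is studied.

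Each of the 40 libraries came from the accumbens of 1 vole, kept apart from the other animals through dissection and isolation of nuclei. All had been housed over 16 days with a partner, either a mate of the opposite sex or a peer of the same sex, which gave 11 females with a mate, 8 females with a peer, 11 males with a mate and 10 males with a peer. Animals are named by sex, type of partner and a number. The labels name neither a genotype nor an age, and they do not say who lived with whom. Animals that shared a cage may therefore not be independent.

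Kept nuclei per library ranged from 1793 to 8204 (median 4727.5), with median UMIs per nucleus between 662 and 2201. Male mate 2 stood apart, with the lowest depth and the fewest members (2 of 6112 kept nuclei, 0.0327%, exact binomial 95% interval 0.00396% to 0.118%). It had too few members for the comparisons of gene expression in members with other nuclei or between groups, but it enters the shares of members below. Female mate 4 had the most members (91 of 8204). Of all kept nuclei, 22.3% carried a barcode that also occurred in another library, and 227 members (23.3%) did so. No barcode belonged to 2 members. Doublet scoring marked a number of nuclei fixed in advance for each library, at 0.8% per 1000 kept nuclei. It marked 2.26% of members and 4.09% of all kept nuclei, and the second value follows from that setting.

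The genes of the rule set the levels in this paragraph, which are given without a test. Levels are CPM (counts of a gene scaled to a common total of UMIs, summed over the members of an animal), and 35 animals with at least 10 members are used. Col14a1 (ENSMOCG00000019350 in the deposited gene table) lay at 408 CPM in female mate 10, the lowest animal, at a median of 979 CPM, and at 2590 CPM in male peer 6, the highest. Gabrq (ENSMOCG00000015386) ranged from 385 CPM in female mate 6 through a median of 665 CPM to 1266 CPM in female mate 8. Foxp2 (ENSMOCG00000018674) ranged from 503 to 1406 CPM with a median of 872 CPM. The members were sparse in the genes that chose them: 572 of 974 held a single Foxp2 UMI, and a member had on average 1.71 UMIs of Col14a1 and 1.29 of Gabrq. Of the members, 300 had Col14a1 only, 272 had Gabrq only and 402 had both.

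Among Foxp2 nuclei without Otof or Slc17a7, 9121 had no UMI of Col14a1 or Gabrq, 1323 had 1, 490 had 2, 255 had 3 and 229 had 4 or more. Over these steps Shisa8, an auxiliary subunit of AMPA-type glutamate receptors, stood at 50.6, 160, 244, 293 and 280 CPM. Ppp1r1b, the dopamine-regulated phosphatase inhibitor DARPP-32 of spiny neurons, stood at 1429, 939, 592, 480 and 283 CPM. The nuclei with 1 UMI lay between those with none and the members in both genes.

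The members had the transcripts of GABA neurons and very few of glutamate neurons. The summed level of Gad1, Gad2 and Slc32a1, which make and load GABA, ranged from 2060 to 3453 CPM over the 25 animals with at least 20 members (median 2683 CPM). Slc17a6, Slc17a8, Tbr1, Neurod2, Neurod6, Fezf2 and Slc30a3, 7 genes of glutamate neurons other than the gated Slc17a7, summed to a median of 0 CPM and at most 100 CPM. The 5 oligodendrocyte markers in the files summed to between 49.8 and 1163 CPM in members and to a median of 180 CPM, against 42770 CPM in an oligodendrocyte reference of 14942 nuclei. The 7 astrocyte markers had a median of 604 CPM in members and 696 CPM in Drd1 nuclei (defined below). Each of the 6 microglia markers lay under 20 CPM pooled over all members, as did 9 of 9 vascular and fibroblast markers and 9 of 12 interneuron markers. The interneuron sum had a median of 129 CPM and reached 2017 CPM in 1 animal; its part in the results below was not tested.

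Shisa8, Rhcg, Pcdh8 and Stc1 had been proposed as markers of these nuclei from earlier results of the same data, so their presence is a description and supports nothing. Rhcg encodes an ammonium transporter, Pcdh8 a protocadherin and Stc1 the secreted glycoprotein stanniocalcin. In members 33.8% of nuclei had a Shisa8 UMI, 27.0% a Rhcg UMI, 59.1% a Pcdh8 UMI and 13.8% a Stc1 UMI, at a median of 1501.5 UMIs per nucleus. In the oligodendrocyte reference, which should lack these genes, the shares were 0.395%, 0.361%, 1.35% and 0.201% at a median of 715 UMIs. With every nucleus thinned to 1000 UMIs, the shares in the 811 members deep enough were 23.8%, 17.3%, 43.0% and 8.38%, and those in 3908 reference nuclei were 0.614%, 0.435%, 1.59% and 0.307%. Drd1a, the older name under which the D1 receptor is listed, was detected in 47.2% of members and 2.85% of the reference.

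Whether Col14a1 and Gabrq mark the same nuclei was read with gates that used only 1 of them. Both genes had been joined in the rule with earlier results of these data known. The p-values here and in the reverse comparison are therefore a description and no independent support. Among Foxp2 nuclei without Otof or Slc17a7, those with at least 2 Col14a1 UMIs were compared with those with none, and Gabrq, which neither gate used, was read. Gabrq was higher in the Col14a1 nuclei in all 6 animals with at least 20 nuclei in both gates, at 329 ± 135 CPM against 75.2 ± 25.9 CPM (SD, n = 6). The difference was 254 ± 124 CPM (SD over animals), with an exact two-sided sign-flip permutation p of 0.0312, the smallest that 6 animals allow, and 0.0625 when adjusted over both directions. With at least 5 nuclei, a minimum chosen after the data were seen, it was higher in 34 of 34 animals, with medians of 378 CPM and 68.1 CPM (permutation p = 1e-05, the smallest that 100000 resamples give). Thinned to 1000 UMIs per nucleus, 20 animals remained and it was higher in 17 of them, by 295 ± 223 CPM (SD; permutation p = 4e-05). A Gabrq UMI was found in 38.4% of the 487 Col14a1 nuclei at a median depth of 1358 UMIs and in 11.7% of the others at 1918 UMIs, against 1.80% of the oligodendrocyte reference.

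The reverse comparison gave the same direction. Only 3 animals had at least 20 nuclei in both Gabrq gates, and Col14a1 was higher in all 3, by 207 ± 107 CPM (SD). With 3 animals the exact permutation test cannot go below its p of 0.25. With at least 5 nuclei, Col14a1 was higher in the Gabrq nuclei of 29 of 33 animals, at a median of 291 CPM against 53.9 CPM (permutation p = 1e-05). A Col14a1 UMI was found in 33.8% of the 411 Gabrq nuclei, in 6.96% of Foxp2 nuclei without Gabrq and in 0.207% of the reference. Thinned to 1000 UMIs, 6 animals remained and the difference was 172 CPM, higher in 5 of 6 (exact permutation p = 0.0938). Over the 33 animals, Col14a1 in the Gabrq nuclei ran from 0 to 1455 CPM, and Gabrq in the Col14a1 nuclei of the 34 animals from 129 to 944 CPM.

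**Figure D1:**
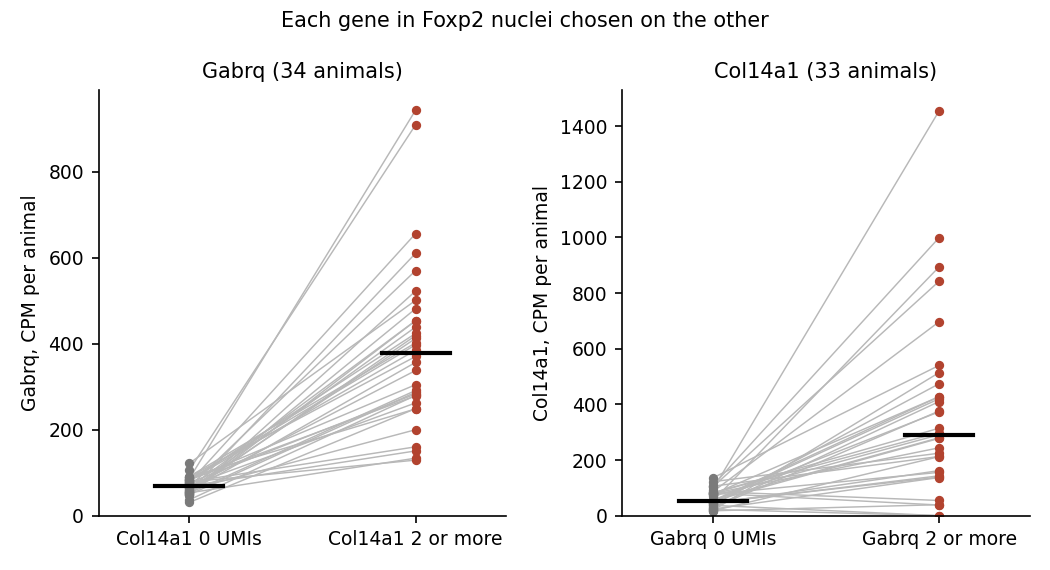
Gabrq in Foxp2 nuclei chosen on Col14a1 (left, 34 animals) and Col14a1 in Foxp2 nuclei chosen on Gabrq (right, 33 animals), in CPM per animal with at least 5 nuclei in both gates; lines join the 2 gates of an animal and black bars are medians. All 34 lines rise on the left and 29 of 33 rise on the right.

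The 14410 Foxp2 nuclei without Slc17a7 were clustered, and clusters are given by number and leading genes, as a description. Cluster 2 (2033 nuclei, led by Kcnh5, Glra2, Ptpru, Olfm3, Wls, Grm8, Adra2a and Shisa8) held 665 members, or 68.3%. It held 85.7% of the Col14a1-only members and 79.6% of those with both genes, but 32.4% of the Gabrq-only members. Cluster 5 (led by Oprm1, Pcdh9, Pde1a, Pcdh19, Shisa8, Tac2 and Pcdh8) held 102 members, of which 40 were Gabrq-only. Cluster 11 (led by Ndst4, Gpr101, Sst and Nts) held 35 Gabrq-only members and 3 others. Astrocyte, oligodendrocyte and microglia genes led clusters 14, 15 and 20, which held 12, 5 and 2 members and in which doublet scoring marked 61.9%, 60.9% and 50% of nuclei.

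Cluster 2 also contained 1368 nuclei that were not members, of which 203 had an Otof UMI, 498 had 1 UMI of Col14a1 and Gabrq and 667 had none. Pooled over animals, these other nuclei had 363 CPM of Shisa8, 304 CPM of Rhcg and 604 CPM of Pcdh8, beside 368, 261 and 721 CPM in the members of the cluster. Their median depth was 1132 UMIs against 1300 UMIs. The members were 32.7% of the nuclei of this cluster. The pooled levels of Gabrq-only members inside and outside cluster 2 are a description, since the clusters were made from these genes. Tac1, the precursor of substance P, stood at 74.1 and 903 CPM, and Shisa8 at 400 and 100 CPM. Dlk1, a Delta-like membrane protein, stood at 22.2 and 246 CPM, and the peptide precursor Nts at 0 and 182 CPM. Gabrq-only members outside cluster 2 numbered 184, and those inside 88. Those outside were spread over many clusters, with 40 in cluster 5, 35 in cluster 11, 31 in cluster 4 and 29 in cluster 1, so their pooled levels stand for a mixture.

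**Figure D2:**
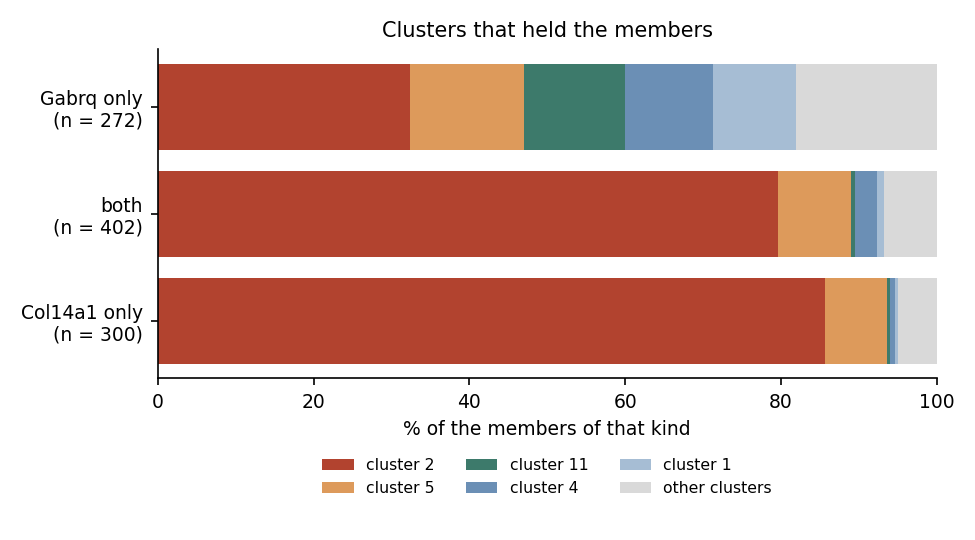
Share of the Col14a1-only (n = 300), Gabrq-only (n = 272) and double (n = 402) members that fell in each numbered cluster, as a percentage of the members of that kind. Colours are the 5 clusters with the most members (grey for the rest), and cluster 2 holds 85.7%, 32.4% and 79.6% of the 3 kinds in that order.

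Col14a1-only and Gabrq-only members were compared within animals. Only 1 animal had at least 20 nuclei of both kinds, so 19 animals with at least 5 of both were used, a minimum chosen after the data were seen. edgeR's quasi-likelihood test with the animal as a block tested 181 genes and called none at a fold change of at least 2 (0% in either direction, adjusted p under 0.05). Of the 181, 31 (17.1%) had an adjusted p under 0.05 at a fold of any size. DESeq2, which gave an adjusted p for 2137 genes, called 37 (1.73%) at the same thresholds, 21 higher and 16 lower in Col14a1-only members. Adcy5, a striatal adenylyl cyclase, had a median of 529 CPM in Col14a1-only and 899 CPM in Gabrq-only members and was lower in the former in 17 of 19 animals, by -0.87 ± 0.18 on the log2 scale (SE; adjusted p = 0.000378 in edgeR). Gnal, the G protein alpha subunit that couples striatal receptors to that cyclase, was lower in 18 of 19 animals, by -0.97 ± 0.16 (edgeR adjusted p = 9.31e-06). Timp2, an inhibitor of matrix metalloproteinases, was higher in 17 of 19, by 0.93 ± 0.16 (edgeR adjusted p = 1.88e-05), and the homeobox gene Meis2 was higher in 16 of 19, by 0.74 ± 0.14 (edgeR adjusted p = 2.9e-05). Gad1, which makes GABA, was higher in 16 of 19 (0.55 ± 0.16) and its relative Gad2 was lower in 15 of 19 (-0.54 ± 0.16). Without the filter on low counts, where the median log2 value of all genes was -0.20, the Gad1 difference was 0.34 ± 0.17 (edgeR adjusted p = 0.809) and that of Meis2 0.51 ± 0.15 (edgeR adjusted p = 0.0871), so neither passed, and Gad2 stood at -0.76 ± 0.16 (edgeR adjusted p = 0.00101). Gnal and Timp2 were chosen after their values were seen. The Gabrq-only members were also the deeper nuclei, with a median of 1971 UMIs against 1258, and the part of depth was not tested.

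Genes at lower levels were read in edgeR's test without that filter. There 64 of 12849 genes (0.498%) were called, 16 higher and 48 lower in Col14a1-only members, a balance opposite to that of DESeq2. Tac1 had a median of 60.7 CPM in Col14a1-only and 542 CPM in Gabrq-only members and was lower in 16 of 19 animals (log2 fold change -2.06 ± 0.26, edgeR adjusted p = 2.8e-11). Ppp1r1b was lower by -1.40 ± 0.22 and Olfm3, a secreted olfactomedin that binds AMPA receptors, was higher by 1.42 ± 0.27, in 16 and 18 of 19 animals. Rhcg was higher by 1.34 ± 0.30 (edgeR adjusted p = 0.00346). Shisa8, Pcdh8 and Stc1 did not pass the test, with log2 values of 0.76 ± 0.28, 0.59 ± 0.21 and 1.60 ± 0.47 (SE).

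Members were compared with 3 other sets of nuclei from the same animals, all without Slc17a7. Otof Foxp2 nuclei (2489) had Foxp2 and Otof but neither Col14a1 nor Gabrq. Other Foxp2 nuclei (9121) had Foxp2 and none of Otof, Col14a1 or Gabrq. They include the 667 nuclei of cluster 2 that had none of these 3 genes. Drd1 nuclei (20453) had at least 2 UMIs of the D1 receptor, none of Drd2, Otof, Col14a1 or Gabrq, and any level of Foxp2. This gate favours neurons of the D1 class over those of the D2 class. Differences between members and Drd1 nuclei in other genes of these classes are therefore partly set by the gate. Counts were summed per animal, 25 animals had at least 20 nuclei in each set (of the females 6 with a mate and 6 with a peer, of the males 8 and 5), and edgeR's quasi-likelihood test was run with the animal as a block. A gene was called at a Benjamini-Hochberg adjusted p under 0.05 and a fold change of at least 2, and genes used by a gate were not tested. The 3 comparisons share the members and are not independent of each other, so their values are set side by side only. Members were also the shallower nuclei, with a median of 1501.5 UMIs against 2242, 1917 and 2268 in the 3 sets. The part of depth was not tested.

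Against Otof Foxp2 nuclei, 148 of 3327 tested genes (4.45%) were called, 65 higher in members (1.95%) and 83 lower (2.49%). Against other Foxp2 nuclei, 213 of 5307 (4.01%) were called, 85 higher (1.6%) and 128 lower (2.41%). Against Drd1 nuclei, 436 of 6469 (6.74%) were called, 177 higher (2.74%) and 259 lower (4%). DESeq2, run on more genes, gave more higher than lower calls, 315 and 245, 369 and 300, and 1032 and 487 in the same order. Over all genes that DESeq2 tested, the median log2 value was 0.21, 0.20 and 0.25 in the same order. In edgeR without the filter on low counts it was -0.12, -0.21 and -0.23. Over the 3327, 5307 and 6469 genes named first, size factors moved the median by less than 0.1 on the log2 scale. A gene that passed the filter only through the side where it is high had to differ, so the lists below are described by counts beside these shares.

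Genes with the largest increases in members included channels, receptors and adhesion proteins. Glra2, the alpha 2 subunit of the glycine receptor, ranged from 102 through a median of 209 to 400 CPM in members and from 0 through 8.44 to 42.4 CPM in Otof Foxp2 nuclei, without overlap, and was higher in 25 of 25 animals (log2 fold change 3.95 ± 0.21, edgeR adjusted p = 5.67e-28). Its log2 fold change against other Foxp2 nuclei was 3.07 ± 0.15. Kcnh5, a voltage-gated potassium channel, had a median of 274 CPM in members and 37.3, 44.4 and 16.4 CPM in Otof Foxp2, other Foxp2 and Drd1 nuclei. The ranges did not overlap in any of the 3 comparisons, with log2 fold changes of 2.92 ± 0.15, 2.58 ± 0.12 and 4.16 ± 0.13.

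Olfm3 was also high, at a median of 332 CPM in members and 48.5, 48.3 and 19.6 CPM in the others, and its ranges did not overlap either. Wls, the carrier that brings Wnt proteins to the cell surface, had a median of 132 CPM in members and 12.1 CPM in Otof Foxp2 nuclei (3.27 ± 0.21). Ptpru, a receptor tyrosine phosphatase, stood at a median of 131 CPM in members and 3.76 CPM in Drd1 nuclei (4.95 ± 0.21). Against Drd1 nuclei, Mdga1, an adhesion protein that binds neuroligins, was higher by 4.38 ± 0.26, and Cacna1g, a T-type calcium channel, by 3.85 ± 0.22. Of the other genes in the 8 largest increases, Tpbg, Podxl2, Peg10 and Nfix were called against Otof Foxp2 nuclei with log2 values between 2.50 and 3.06, and Sdk2 and Grm8 against other Foxp2 nuclei with 2.38 and 2.37.

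Of the proposed markers, Pcdh8 ranged from 382 to 866 CPM in members with a median of 555 CPM, above medians of 160, 124 and 36.5 CPM in Otof Foxp2, other Foxp2 and Drd1 nuclei, and no comparison overlapped. Shisa8 had a median of 268 CPM in members, against 68.9, 52.4 and 18.2 CPM, and was higher in 25 of 25 animals each time, though the ranges overlapped in the first 2 comparisons. Rhcg had a median of 158 CPM in members and 65.3, 51.8 and 28.7 CPM in the others, higher in 23, 25 and 25 of 25 animals. Stc1 had a median of 84.9 CPM in members and 6.82 CPM in Drd1 nuclei (log2 fold change 3.45 ± 0.23), and it did not pass the filter in the other comparisons.

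**Figure D3:**
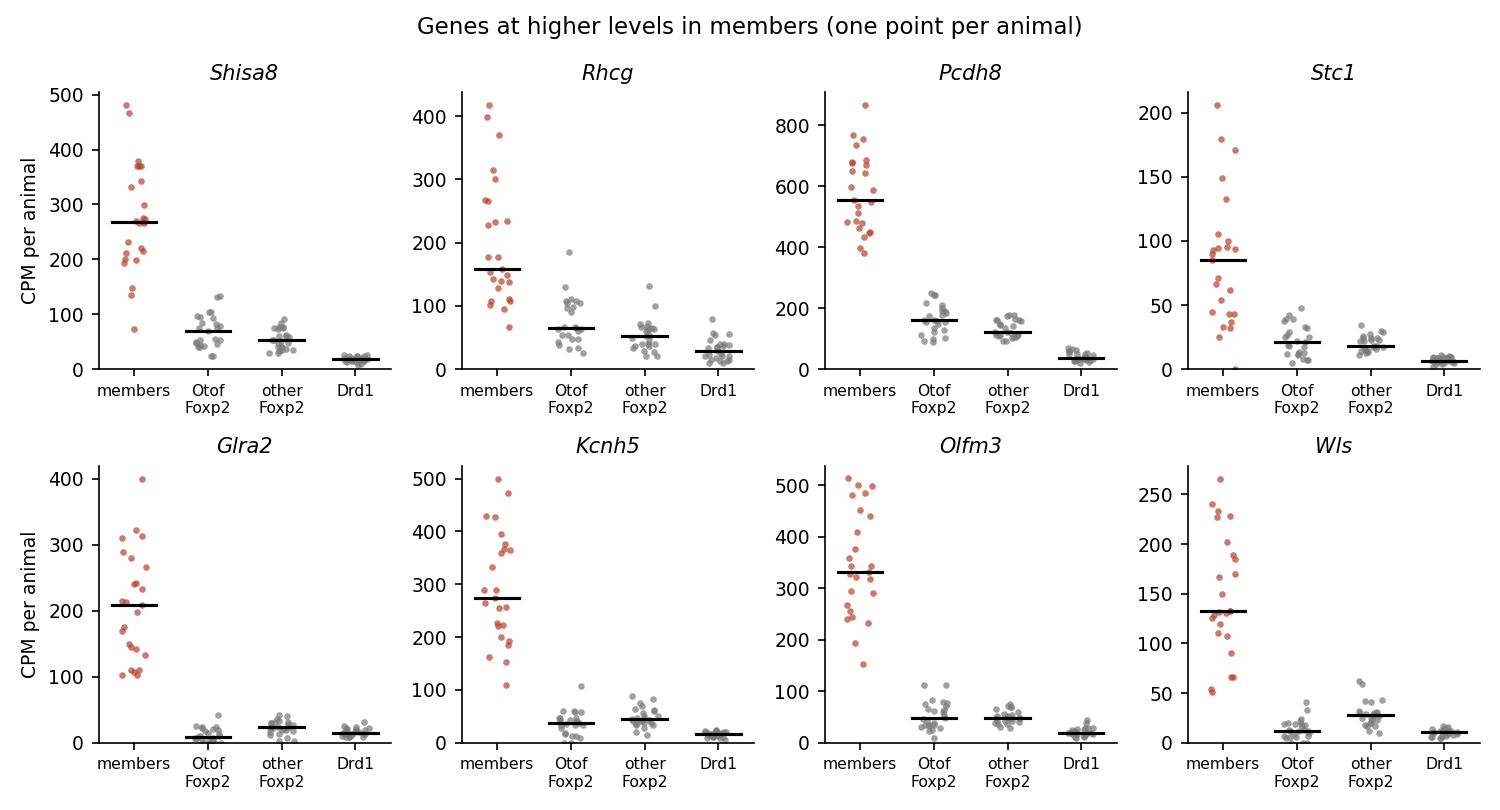
CPM per animal of the 4 proposed markers (top) and of Glra2, Kcnh5, Olfm3 and Wls (bottom) in members, Otof Foxp2, other Foxp2 and Drd1 nuclei of 25 animals; each point is an animal, bars are medians and each panel has its own linear scale from 0. Member medians lie above those of the other 3 sets in all 8 panels, with overlap between animals for Rhcg, Stc1 and Shisa8 and, for Wls, with other Foxp2 nuclei.

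The members had less of several genes of medium spiny neurons. Of the 10 genes listed for them, 9 passed the filter against Otof Foxp2 nuclei, of which 6 were lower and none higher, with a median log2 fold change of -1.29 beside 0.02 for all genes tested. Against other Foxp2 nuclei and against Drd1 nuclei 10 passed and 7 were lower each time, with medians of -1.35 and -1.49. Low levels were not particular to members. In cluster 2, where members were 32.7% of nuclei, the 10 genes averaged -1.45 on the log2 scale against the other clusters. Pooled Adcy5 stood at 336 CPM in members of cluster 2 and 389 CPM in its nuclei without Col14a1 or Gabrq. It stood at 654 CPM in all members and 1097 CPM in Gabrq-only members outside that cluster. Ppp1r1b had a median of 529 CPM in members, with a range of 150 to 867 CPM, and medians of 1551, 1333 and 1610 CPM in the 3 other sets. It was lower in 25 of 25 animals in each comparison (-1.68 ± 0.09, -1.48 ± 0.07 and -1.71 ± 0.08). Pde10a, a striatal cyclic nucleotide phosphodiesterase, had a median of 109 CPM against 486, 414 and 414 CPM, without overlap in any comparison.

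Adcy5 and Rgs9, a regulator of G protein signals, were lower in 25 of 25 animals each time, with log2 values between -1.29 and -1.72. The nuclear receptor gene Rarb and the G protein subunit gene Gng7 were also lower in all 3 comparisons. Foxp1 did not pass the filter against Otof Foxp2 nuclei and was lower by -1.84 ± 0.17 and -2.44 ± 0.15 against the other sets. Bcl11b changed by less than the fold threshold in every comparison (-0.33 ± 0.10, -0.23 ± 0.09 and -0.33 ± 0.09). Meis2 was not called and lay on the other side, at a median of 1200 CPM in members and 903, 801 and 596 CPM in the others.

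Of the 7 genes of the D1 class in the files, 4, 4 and 3 passed the filter against Otof Foxp2, other Foxp2 and Drd1 nuclei, and 2, 3 and 3 were lower. Chrm4, a muscarinic receptor, was lower in 24 of 25 animals each time, and the others were the peptide genes Tac1 and Pdyn. Of 7 genes of the D2 class, 4 passed against other Foxp2 nuclei and 2 were lower: Adora2a, the adenosine receptor, fell by 2.39 ± 0.20 and Gpr6, an orphan receptor, by 1.70 ± 0.16. The other members that passed, Penk and Sp9, lay on the other side at 0.34 ± 0.07 and 0.90 ± 0.14, under the fold threshold. Against Drd1 nuclei 3 passed, with Penk and Sp9 higher and none lower, and against Otof Foxp2 nuclei 2 passed and none was called. For both classes the values against Drd1 nuclei are partly set by the gate of that set and are a description. Drd1a had a median of 498 CPM in members, below 877 CPM in Otof Foxp2 and 746 CPM in other Foxp2 nuclei, by -0.79 ± 0.07 and -0.60 ± 0.07, under the fold threshold. Drd2 had 16 UMIs in all members together, or 8.93 CPM.

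The 8 largest decreases of each comparison were also read. Against Otof Foxp2 nuclei they were, after Tac1, the matrix protein gene Spon1 (-2.86 ± 0.19), Ankrd33b, the actin-binding Nexn, the sodium channel subunit Scn4b, Cnr1, Ptchd4 and Tamalin (-2.59 to -2.15). Against other Foxp2 nuclei, Ptprv fell by 3.43 ± 0.22, from a median of 153 CPM to 0 CPM, and Mctp1, Nexn, Reln, Ankrd33b and the calcium buffer Calb1 were lower by -2.58 to -2.05. Against Drd1 nuclei, Mlip had no UMI in the members of 21 of 25 animals and a median of 97.1 CPM in Drd1 nuclei (-4.77 ± 0.31). Abi3bp, Ptprv, Plxnd1, Mctp1, Reln and Ntn1 were lower there by -4.44 to -3.22.

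Of the 24 listed peptides and secreted factors, 4, 5 and 9 passed the filter against Otof Foxp2, other Foxp2 and Drd1 nuclei. Of these 1, 3 and 4 were lower in members, and 3 were higher, all against Drd1 nuclei. Tac1 ranged from 42.9 through 310 to 926 CPM in members and from 1649 through 3151 to 6531 CPM in Otof Foxp2 nuclei, without overlap, and was lower in 25 of 25 animals (-3.09 ± 0.11, edgeR adjusted p = 7.04e-38). Against other Foxp2 and Drd1 nuclei it was lower by -2.18 ± 0.09 and -2.38 ± 0.09, again without overlap. Pdyn, the precursor of dynorphin, was lower than in Drd1 nuclei (medians of 102 and 530 CPM) and than in other Foxp2 nuclei (233 CPM). Cartpt was lower in the same 2 comparisons, and Cck was lower than in Drd1 nuclei by -1.02 ± 0.22. The Cck call was lost with doublets left out (-0.99) and without the animal block (-1.09, edgeR adjusted p = 0.0721).

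Penk, the precursor of enkephalin, was higher in members than in Drd1 nuclei in 24 of 25 animals, at medians of 2592 and 697 CPM (2.07 ± 0.10). Since Penk is a gene of the D2 class and Drd1 nuclei had to lack Drd2, part of this difference is set by the gate. Penk lay below its level in Otof Foxp2 nuclei without reaching the fold threshold (median 4341 CPM, -0.66 ± 0.10). Tac2, the precursor of neurokinin B, had a median of 567 CPM in members and 187 CPM in Drd1 nuclei and was higher in 23 of 25 animals (1.48 ± 0.09). In members Penk and Tac2 varied several-fold between animals, from 830 to 5207 CPM and from 111 to 1406 CPM.

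**Figure D4:**
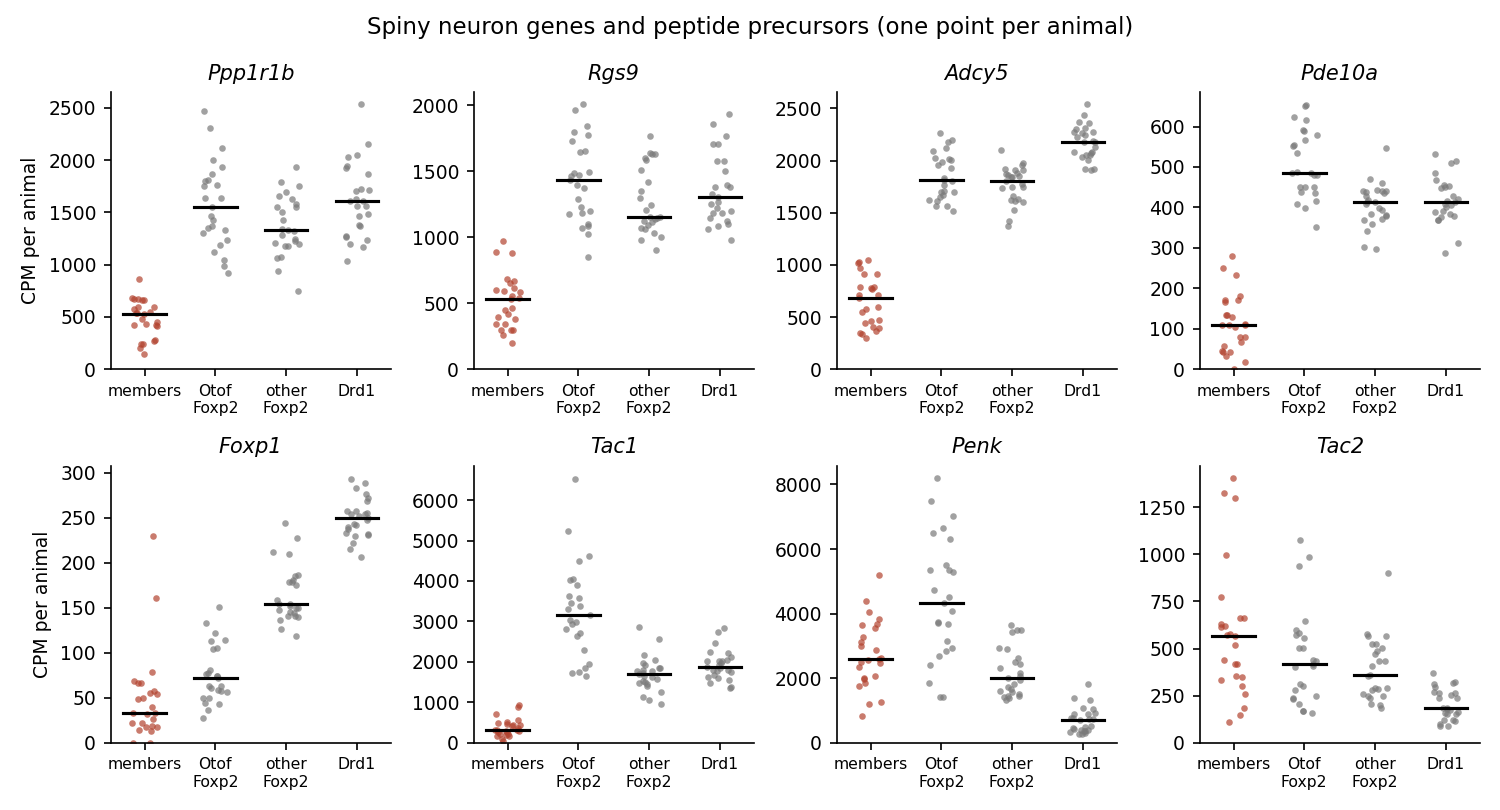
CPM per animal of Ppp1r1b, Rgs9, Adcy5, Pde10a and Foxp1 and of the peptide precursors Tac1, Penk and Tac2 in members, Otof Foxp2, other Foxp2 and Drd1 nuclei of 25 animals; each point is an animal, bars are medians and each panel has its own linear scale from 0. Members lie low for the spiny neuron genes and Tac1 and above Drd1 nuclei for Penk and Tac2.

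Among GABA-A receptor genes other than Gabrq, 14 of the 16 listed were in the files with Gabrq included. Gabra5 had a median of 421 CPM in members and 189, 209 and 194 CPM in the other sets, and was higher in 25 of 25 animals each time (1.18 ± 0.09, 1.06 ± 0.08 and 1.16 ± 0.08). Gabra3 had a median of 177 CPM against 95.2, 78.8 and 47.0 CPM and was higher in 24 of 25 each time. Both encode alpha subunits. Gabrb2 was called higher against Otof Foxp2 nuclei only (1.12 ± 0.14). Of the 10, 11 and 11 that passed the filter, 3, 2 and 2 were called higher and none lower. Without the filter Gabra5 was under the fold threshold against other Foxp2 (0.89) and Drd1 nuclei (0.97), as were Gabra3 (0.92) and Gabrb2 (0.97) against Otof Foxp2 nuclei. Gabrd was called lower against Drd1 nuclei only without the filter (-1.05), where the median log2 value of all genes was -0.23.

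Of 19 genes of AMPA receptors and their auxiliary proteins, 9, 14 and 14 passed the filter, with 3 called higher in each comparison and 2, 1 and 1 lower. Gria3 was lower in 25 of 25 animals in all 3 comparisons, with a median of 200 CPM in members and 569, 509 and 538 CPM in the others (log2 values of -1.35, -1.29 and -1.33). Gria1 was higher than in Otof Foxp2 nuclei (medians of 645 and 301 CPM, 1.07 ± 0.08; 0.91 without the filter, under the fold threshold). Cacng5, a transmembrane AMPA receptor regulator, was higher than in other Foxp2 and Drd1 nuclei by 1.19 ± 0.16 and 2.29 ± 0.17. Gad1 was higher than in Drd1 nuclei (859 and 355 CPM, 1.29 ± 0.06), without overlap, and lay above the other sets by 0.85 and 0.96, under the fold threshold.

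Delta protocadherins are homophilic adhesion proteins of neurons, and of 10 listed 8, 9 and 9 passed the filter, with 3 called higher each time and 1, 0 and 0 lower. Besides Pcdh8, Pcdh19 was higher in 25 of 25 animals in each comparison, at a median of 181 CPM against 59.3, 58.0 and 33.9 CPM (1.67 ± 0.16, 1.64 ± 0.12 and 2.43 ± 0.13). Pcdh9 was called higher against Otof Foxp2 nuclei (1.20 ± 0.12), and Pcdh20 against other Foxp2 and Drd1 nuclei (1.12 ± 0.12 and 1.80 ± 0.13). Pcdh7 was lower than in Otof Foxp2 nuclei (-1.06 ± 0.11). Of 26 collagen genes in the files, Col14a1 included, 0, 1 and 2 passed the filter. Of these Col24a1 was lower than in Drd1 nuclei, listed at 0 in 14 of 25 animals, with a median of 193 CPM in Drd1 nuclei (-3.93 ± 0.20).

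Of 30 transcription factor genes of striatal and amygdala GABA neurons in the files, 6, 10 and 13 passed the filter, with 1, 2 and 5 called higher and 0, 2 and 4 lower. Tshz1 had a median of 187 CPM in members and 80.0 and 35.6 CPM in other Foxp2 and Drd1 nuclei (1.31 ± 0.11 and 2.53 ± 0.13). Meis1 was called higher in the same 2 comparisons (1.24 ± 0.15 and 2.09 ± 0.16), Pbx3 against Otof Foxp2 and Drd1 nuclei (1.06 ± 0.15 and 1.56 ± 0.13), and Sp9 against Drd1 nuclei (2.75 ± 0.17). Zfhx4 was lower than in other Foxp2 nuclei (-1.28 ± 0.18) and than in Drd1 nuclei (-1.84 ± 0.16), and Zfhx3 and Dlx6 than in Drd1 nuclei (-1.66 ± 0.23 and -1.05 ± 0.28).

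Of 5 genes in the files that mark the patch compartment of the striatum, where the mu opioid receptor is dense, 3 passed the filter in each comparison. Called higher were 2, 1 and 3 against Otof Foxp2, other Foxp2 and Drd1 nuclei, and 1 was lower against Otof Foxp2 nuclei. Kremen1 and Kcnip1 did not pass, at 6.69 and 2.79 CPM pooled over members. Lypd1, a modulator of nicotinic receptors, had a median of 650 CPM in members and 237, 223 and 151 CPM elsewhere and was higher in 25 of 25 animals each time. Oprm1, the mu opioid receptor, had a median of 289 CPM and was higher than in Otof Foxp2 and Drd1 nuclei (1.17 ± 0.10 and 1.12 ± 0.09); against other Foxp2 nuclei it was 0.71 ± 0.09, under the fold threshold. Sema5b was lower than in Otof Foxp2 nuclei (-1.09 ± 0.13) and higher than in Drd1 nuclei (1.21 ± 0.15). Without the filter Oprm1 was under the fold threshold against Drd1 nuclei (0.93).

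Of 15 receptor genes studied in pair bonding that were in the files, 5, 5 and 4 passed the filter, with 1, 1 and 2 called higher and 1, 1 and 2 lower. Crhr2, a receptor of the urocortins, had a median of 184 CPM in members and 115, 78.6 and 29.6 CPM in the others, and was called against other Foxp2 and Drd1 nuclei (1.20 ± 0.12 and 2.65 ± 0.14). Pooled over animals, Crhr2 stood at 215 CPM in all members and 261 CPM in cluster 2 nuclei without Col14a1 or Gabrq. Cnr1, the cannabinoid receptor, was lower in all 3 comparisons, in 24 of 25 animals each time (-2.17 ± 0.19, -1.84 ± 0.18 and -2.47 ± 0.17). Oprk1, the kappa opioid receptor, was lower than in Drd1 nuclei (-1.10 ± 0.12). Oxtr, the oxytocin receptor, had 9 UMIs in all members together, or 5.02 CPM, which is too few to compare. Immediate early genes, which rise with recent activity, were lower against Otof Foxp2 nuclei for 4 of the 5 that passed (Arc, Npas4, Egr3 and Nr4a1, log2 values of -1.15 to -1.01). Without female mate 4, the animal with the most members, Npas4 (-0.94) and Nr4a1 (-0.87) were under the fold threshold. Npas4 was called against Drd1 nuclei (-1.21 ± 0.15), as 1 of 8 that passed. None of 6 was called against other Foxp2 nuclei, where Npas4 lay just under the fold threshold (-0.99 ± 0.16) and was called in 5 alternatives (-1.15 to -1.01).

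The share of members per animal did not differ detectably between the groups. It was 0.510 ± 0.242% of kept nuclei in female mates (SD, n = 11, range 0.219% to 1.11%), 0.624 ± 0.292% in female peers (n = 8, range 0.322% to 1.07%), 0.529 ± 0.293% in male mates (n = 11, range 0.0327% to 0.913%) and 0.497 ± 0.344% in male peers (n = 10, range 0.107% to 1.31%). The 4 ranges overlapped. Mates minus peers, averaged over the sexes, gave -0.0416 ± 0.0944 percentage points (SE) with a two-sided permutation p of 0.655, females minus males 0.0539 ± 0.0944 (p = 0.574), and the difference between the sexes in the pairing difference -0.146 ± 0.189 (p = 0.430). Adjusted over these 3 tests, all p-values were 0.655. Within females the exact permutation p was 0.362, and within males 0.826 (0.724 and 0.826 adjusted over both).

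**Figure D5:**
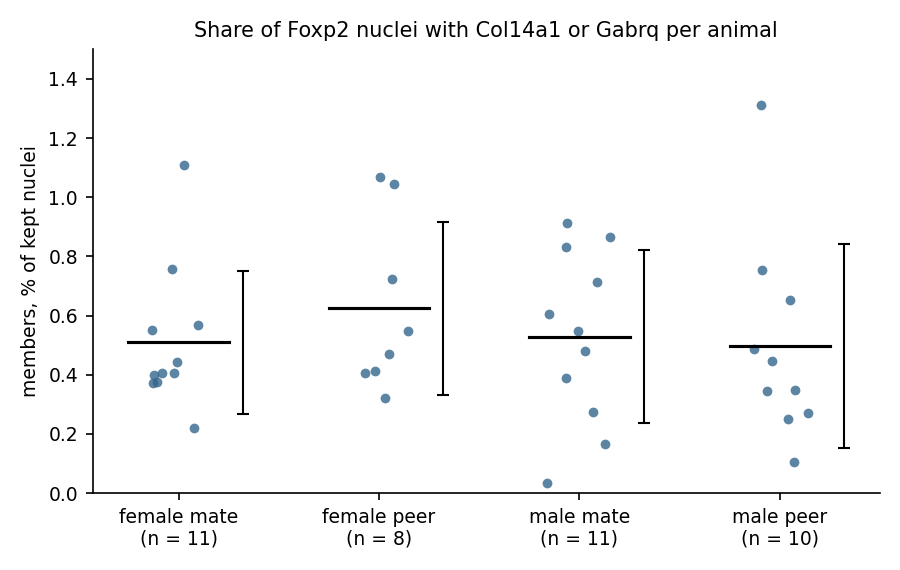
Members as a percentage of kept nuclei in each of 40 animals, by sex and partner (11 and 8 females and 11 and 10 males with a mate and with a peer); black lines are group means and bars at the side are 1 SD. Group means lie between 0.497% and 0.624% and the groups overlap.

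Members, Otof Foxp2 and Drd1 nuclei all had to lack Slc17a7, and members had to lack Otof. Part of the relations below is therefore set by the rule, and their p-values do not separate that part. Over the 40 animals the share of members went with the share of other striatal nuclei, which share a denominator with it. It rose with the share of Otof Foxp2 nuclei (Pearson r = 0.618, permutation p = 6e-05, adjusted over 4 relations 0.00024; Spearman rho = 0.547, adjusted p = 0.00108; r = 0.538 without the 2 animals farthest from the median). It rose more loosely with the share of Drd1 nuclei (r = 0.404, adjusted p = 0.013; rho = 0.381; r = 0.345 without 2) and fell with the share of nuclei with an Slc17a7 UMI (r = -0.508, adjusted p = 0.00168; rho = -0.433; r = -0.320 without 2, permutation p = 0.0495). With median UMIs per nucleus r was 0.263 (permutation p = 0.099) and rho 0.193, and r was 0.354 without male mate 2 and female peer 1 (permutation p = 0.0302).

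No gene that passed the filter was called between partner types or sexes. At 10 or more members, 35 animals entered (of the females 11 with a mate and 7 with a peer, of the males 9 and 8), and edgeR's quasi-likelihood test called 0 of 1560 genes (0%) for mates minus peers, females minus males, their interaction, and mates minus peers within females and within males. Genes at an unadjusted p under 0.05 numbered 75, 46, 55, 55 and 63, and DESeq2 also called 0 in each. Without the filter on low counts, edgeR called 2, 2, 2, 5 and 2 of 13741 genes (0.0146% and, for mates minus peers within females, 0.0364%). The median standard error of a log2 difference was 0.17 for the partner and the sex comparison and 0.34 for the interaction.

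The genes with the lowest p were therefore not called. For partner type these were Srpk2, a splicing kinase (-0.49 ± 0.15, medians of 229 CPM in female mates and 343 CPM in female peers), Plec, the cytolinker plectin (0.62 ± 0.19), and Slc49a4 (-0.58 ± 0.17), all at an adjusted p of 0.829 in edgeR. For sex, Atp2b3, a plasma membrane calcium pump, was first, with a median of 299 CPM in female mates, 266 in female peers, 446 in male mates and 337 in male peers (-0.53 ± 0.14, edgeR adjusted p = 0.573). Within males Slc49a4 had a median of 129 CPM in mates and 296 CPM in peers (-1.03 ± 0.25, edgeR adjusted p = 0.167). For the interaction, Arfgap2 stood at -1.22 ± 0.35 (edgeR adjusted p = 0.691).

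None of the proposed markers and listed receptors that passed the filter was called in the partner contrast. The log2 difference of Shisa8 was -0.28 ± 0.17 (edgeR adjusted p = 0.986), that of Pcdh8 -0.06 ± 0.13, of Rhcg -0.15 ± 0.23, of Drd1a -0.02 ± 0.17, of Oprm1 -0.12 ± 0.19 and of Crhr2 0.23 ± 0.23. For the immediate early genes Arc and Egr1 it was -0.10 ± 0.27 and -0.05 ± 0.22. Summed oligodendrocyte markers in these members had medians between 149 and 180 CPM in the 4 groups, with highest animals at 1163 CPM in female mates and 266 CPM in female peers.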

How the data were processed

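Single-nucleus libraries of 40 voles were grouped by the sex and partner given in their labels. The authors deposited matrices of UMI counts that are not normalized, made with Cell Ranger 3.1.0 per the submitters' processing notes. The aligner settings, genome build and annotation are not given in the sources used here. All libraries list 19130 genes, of which 3807 carry no symbol. Libraries held 1793 to 8204 kept nuclei, and intervals cover counting error only.

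The rule was applied to the counts as deposited and doublets were kept. Counts were summed per animal and tested with edgeR 4.0.16 in R 4.3.3 (TMM, filterByExpr, quasi-likelihood test, Benjamini-Hochberg adjustment), checked on simulated counts. DESeq2 1.42.0 was an alternative. Other alternatives changed size factors, filters, doublets, thresholds, thinning, the animal block, and left out male mate 2 or female mate 4. Clusters came from the Leiden method (leidenalg 0.10.2). Members, lists and markers were chosen with earlier results of these data known. Genes named are those of 26 lists, the 8 largest called changes per direction with at least 20 CPM, and the 3 lowest p where none was called; some are not reported here. P-values take the animal as the replicate. Comparisons of sets of nuclei rest on how differences within an animal vary over animals, and those of groups on the spread between animals.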

Additional observations from a re-analysis of the deposited data

Results flagged for a closer look

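In 8 of 50 groups of animals and genes examined, 1 animal stood apart from the others of its group by the Dixon ratio at the 95% level, where chance alone gives about 1 in 20. All values are CPM in members, and highest, lowest and next refer to animals of the same sex and type of partner. Gabrq was highest in female peer 5, at 1137 CPM, with the next animal at 665. Col14a1 was highest in male peer 6, at 2590 CPM, next 1538. The rule chose the members on Gabrq and Col14a1, so both of these flags are a description and support nothing. Shisa8 was highest in female peer 8 (481 CPM), Rhcg in male mate 8 (398 CPM) and Stc1 in male mate 11 (206 CPM). Srpk2 was highest in male mate 9 (349 CPM) and Hmgcs1 in male mate 11 (240 CPM). Atp2b3 was lowest in female peer 4 (158 CPM).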

How the results depend on the processing

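Of 295 results for named genes, 2335 values were recomputed: 2303 kept their direction and side of the threshold, 19 lost the call, 13 gained it and none reversed. The 2303 include 295 values from leaving out male mate 2. That animal had too few members to enter any gene fit, so these values could not change. Sets of nuclei from the same animals were compared within animals. No paired analysis was possible because, between partner types and sexes, the groups share no label number. Taken in order, 2 at a time, the numbers hold animals of the same partner type, but the labels do not say that these lived together. No fit blocked on such sets of 2 was therefore run. An alternative fit of genes in members between groups used blocks of 10 label numbers. None of the 3 differences in the share of members passed the permutation test in any alternative run (lowest p = 0.234). No alternative was run for the within-sex values. Settings with at least 5 or 10 nuclei and without female mate 4 were chosen after seeing the data. For members against Otof Foxp2 nuclei, DESeq2 called 560 genes and no filter 683, beside 148. For members against other Foxp2 nuclei they called 669 and 877, beside 213, and for members against Drd1 nuclei 1519 and 1495, beside 436. For Col14a1 members against Gabrq members, DESeq2 called 37, no filter 64, doublets left out 1, at least 10 nuclei (3 animals) 12, and without female mate 4 1, beside 0. With no filter, genes in members gave 2 calls for mate minus peer, 2 for female minus male, 2 for the interaction, 5 for mate minus peer in females and 2 in males, beside 0. For Col14a1 in nuclei chosen on Gabrq the difference passed the test at a threshold of 1 (187 CPM) and with at least 5 nuclei (303 CPM). At that minimum it also passed with doublets left out (307 CPM) and at a threshold of 1 (183 CPM). Leaving out male mate 2 there could change nothing (303 CPM), since that animal had too few nuclei to enter. The cause of these passes was not tested, and the larger number of animals enters by construction. The thinned gates with at least 20 nuclei gave no value. Leaving out female mate 4 took Npas4, Nptx2 and Nr4a1 below the fold threshold against Otof Foxp2 nuclei (-0.94, -0.94 and -0.87). Other lost calls included, without the filter, Gria1 (0.91) and Pbx3 (0.91) against Otof Foxp2 and Pcdh20 (0.95) against other Foxp2 nuclei, and, with at least 10 nuclei, Gng7 (-0.94) and Egr3 (-0.99) against Otof Foxp2 and Dlx6 (-0.93) against Drd1 nuclei. A member gives few UMIs, so values of low genes, read without the filter, rest on few counts.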

Other observations

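The Gabrq-only members outside cluster 2 (184 nuclei, from many clusters) are set beside those inside it by pooled levels, without a test. Sst, the precursor of somatostatin, stood at 157 CPM there and 29.6 CPM in the 88 Gabrq-only members inside cluster 2. Of the 131 Sst UMIs in members of the 35 animals with at least 10, female peer 7 held 62. Vip, with 20 of its 22 UMIs in male peer 2, stood at 39.7 and 0 CPM, Trh at 41.6 and 0 CPM and Reln, an extracellular protein, at 134 and 22.2 CPM. Among genes of the bed nucleus and extended amygdala list, Dlk1 and Nts were the ones called lower in Col14a1-only than in Gabrq-only members without a filter (-3.32 ± 0.60 and -3.23 ± 0.66, SE), from 4 and 1 UMIs in the former.

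Several of the calls made between groups only without the filter are given with the animals that held their UMIs. Vip, called within males (-4.60 ± 0.84), had 22 UMIs in 3 animals, 20 of them in male peer 2. Atp13a5, called within females, had 21 of its 24 UMIs in female peer 7, which also held 62 of 131 Sst UMIs and 29 of 72 Npy UMIs. Sst and Npy were called within females too (-2.67 and -2.56). Ndst4, called for mates minus peers (3.03 ± 0.50), had 83 UMIs in 15 animals, 22 of them in female mate 10. Dlk1, called for females minus males (1.68 ± 0.30), had 144 UMIs in 18 animals, 26 of them in female mate 2. Sst, Npy, Vip, Ndst4 and Dlk1 are all among the 10 leading genes of cluster 11. In that cluster 7 of 12 interneuron markers were higher than in the other clusters by over 1 on the log2 scale. So were 5 of 6 lateral septum markers and 3 of 10 markers of the bed nucleus and extended amygdala. The part of that cluster in these calls was not tested. These genes were chosen after their values were seen.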
